A study of Physcomitrium patens with 21 samples.

Results

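This section describes the step from 2 h to 6 h after the shoot tip was cut off in the moss Physcomitrium patens, as the difference between the 3 CUT_T6 libraries and the 3 CUT_T2 libraries, 6 of the 21 libraries of the series. All 32926 gene models were read, and the 20269 that passed a filter on low counts in the decapitation series were tested. The plants were wild type of the Gransden strain. Gametophores from colonies aged 4 weeks were decapitated, and RNA of their stems was pooled from 5 to 10 gametophores per biological replicate at 6 h or at 2 h. Stems collected in the same way at 0, 12 and 24 h gave the other decapitation groups, each with 3 libraries. A separate experiment on gametophore stems compared 30 min of 10 µM indole-3-acetic acid (IAA), the main natural auxin, with 30 min of solvent (mock), again with 3 libraries each, and with no colony age or pooling in the labels. All groups shared the strain, BCDAT medium, 23 °C and days of 16 h light and 8 h dark.

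A moss gametophore is a leafy shoot that grows from a single apical cell at its tip. The tip holds back side branches further down the stem, and auxin made in the shoot is among the signals that carry this inhibition. When the tip is removed, epidermal cells of the stem can turn into new apical cells, so early transcript changes in the stem precede the start of branches. The same cut also wounds the stem.

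Decapitated stems were not matched by intact stems of the same hour in these libraries, so hours since the cut and hour of the day cannot be told apart. The labels of the 24 h group also name biotic stress, with no further detail. Stems are mixed tissue, in which fewer cells of a type and less RNA per cell cannot be told apart. The identifiers in the tables are not paired with gene names, and none of the 32926 matched the RefSeq table of assembly ASM5946719v1, so no function could be given to a gene model, lists of pathway genes could not be filled, and the label of stem tissue could not be checked against marker genes.

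The 6 h libraries held 24048792, 21597807 and 24460881 counted read pairs (replicates 1, 2 and 3), and the 2 h libraries 20632596, 19803561 and 20874963. Gene models with at least 1 pair numbered 23342 to 23486 per library at 6 h and 23474 to 23531 at 2 h. Read pairs with several equally good positions, which were removed before counting, made up 10.6% to 11.1% of counted and removed pairs at 6 h and 11.3% to 11.5% at 2 h. Replicate 1 of 6 h stood somewhat apart from its group. The chi-square of its counts per gene was 9.10 and 9.94 against replicates 2 and 3, while those 2 libraries gave 3.95 between them and the pairs of 2 h libraries 4.02 to 4.54. Values above 1 exceed sampling noise, so none of the 6 libraries was a copy of another. Across genes, log2 CPM (read pairs relative to library size, scaled between libraries) of a 6 h and a 2 h library correlated at 0.975 to 0.984, against 0.989 to 0.994 between libraries of 6 h and 0.993 to 0.994 between libraries of 2 h.

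From 2 h to 6 h after decapitation, about as many gene models rose as fell, but the falls were larger. In edgeR's quasi-likelihood test with Benjamini-Hochberg adjusted p below 0.05, 2591 gene models were higher at 6 h than at 2 h (12.8% of those tested) and 2678 were lower (13.2%), 26.0% in either direction. The median log2 change, 6 h over 2 h, was 0.30 among the genes called higher and -0.46 among those called lower, while over all genes tested it was 0.01. At least a 2-fold change was fitted for 126 of the higher genes (0.622% of those tested) and 362 of the lower genes (1.79%). At least a 4-fold change was fitted for 24 (0.118%) and 71 (0.350%). The 126 and 362 genes are called the strongly raised and the strongly lowered set below. Tested against a 2-fold change itself with edgeR's glmTreat, 37 genes were higher and 50 lower by more than 2-fold. Most of the 126 and 362 genes thus could not be set apart from 2-fold with 3 libraries per time. The 50 are fewer than the 71 with a fitted decrease of at least 4-fold, so some decreases of that size were not set apart either. At an adjusted p below 0.01, 1460 genes were higher and 1625 lower.

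Small increases made up most of the genes that rose. Of the genes called higher, 1456 (56.2%) changed by less than 1.25-fold and 720 (27.8%) by 1.25- to 1.5-fold. The genes called lower were spread over larger changes, with 833 (31.1%) under 1.25-fold, 890 (33.2%) from 1.25- to 1.5-fold and 593 (22.1%) from 1.5- to 2-fold. Without replicate 1 of 6 h, the library that stood apart, 1878 genes were higher and 2053 lower, 117 and 303 of them at least 2-fold.

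**Figure D1:**
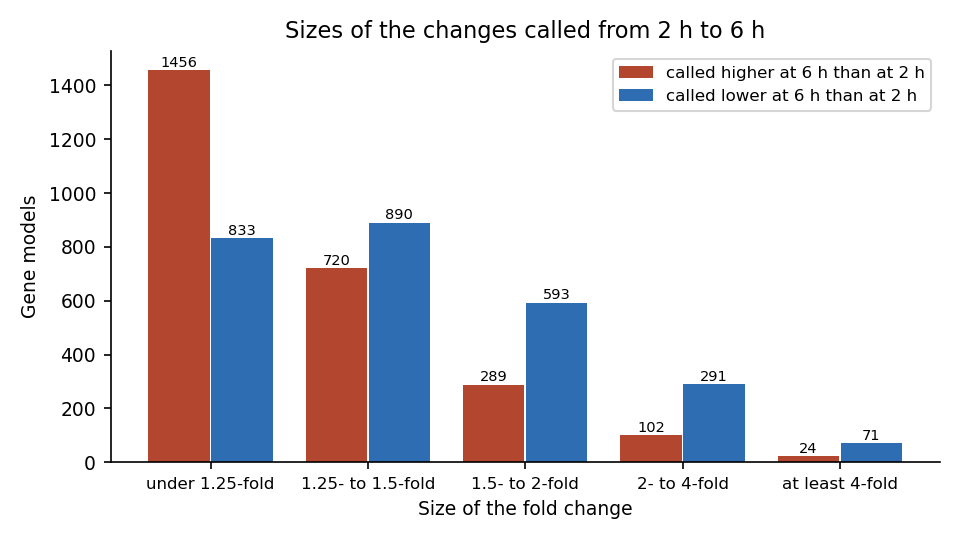
Number of gene models (vertical axis) by the size of the fitted fold change (horizontal axis) among those called higher and those called lower at 6 h than at 2 h. Increases outnumbered decreases under 1.25-fold, with 1456 against 833, and decreases outnumbered increases in every larger class.

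The lowest level class held the most genes with at least a 2-fold change and the smallest called share. Gene models were split into 5 classes of about equal size by their mean level over the 15 libraries of the decapitation series. In the lowest class, with 0.171 to 4.58 CPM, 13.6% were called, but it held 56 of the 126 genes at least 2-fold higher and 203 of the 362 at least 2-fold lower. In the highest class, from 60.5 CPM upward, 35.6% were called, 602 higher and 842 lower, with 22 and 33 of them at least 2-fold. From the lowest class to the highest, the share of tested genes at least 2-fold higher was 1.38%, 0.469%, 0.345%, 0.370% and 0.543%, and the share at least 2-fold lower was 5.01%, 1.80%, 0.814%, 0.493% and 0.814%, so neither share kept falling with level. Relative counting error is smallest for the most abundant genes, and its part in the called shares was not tested.

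Among the most abundant transcripts of the stem, more genes were called lower than higher. Of the 100 gene models with the highest mean level over the 15 libraries, 15 were called higher at 6 h and 45 lower, and their log2 changes ran from -1.52 to 0.92 with a median of -0.13. Of these 100, none was at least 2-fold higher and 2 were at least 2-fold lower. Of the first 1000, 155 were higher and 281 lower, with 11 at least 2-fold in each direction. Over all genes tested 12.8% were higher and 13.2% lower, so the counts of increases were near that share.

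**Figure D2:**
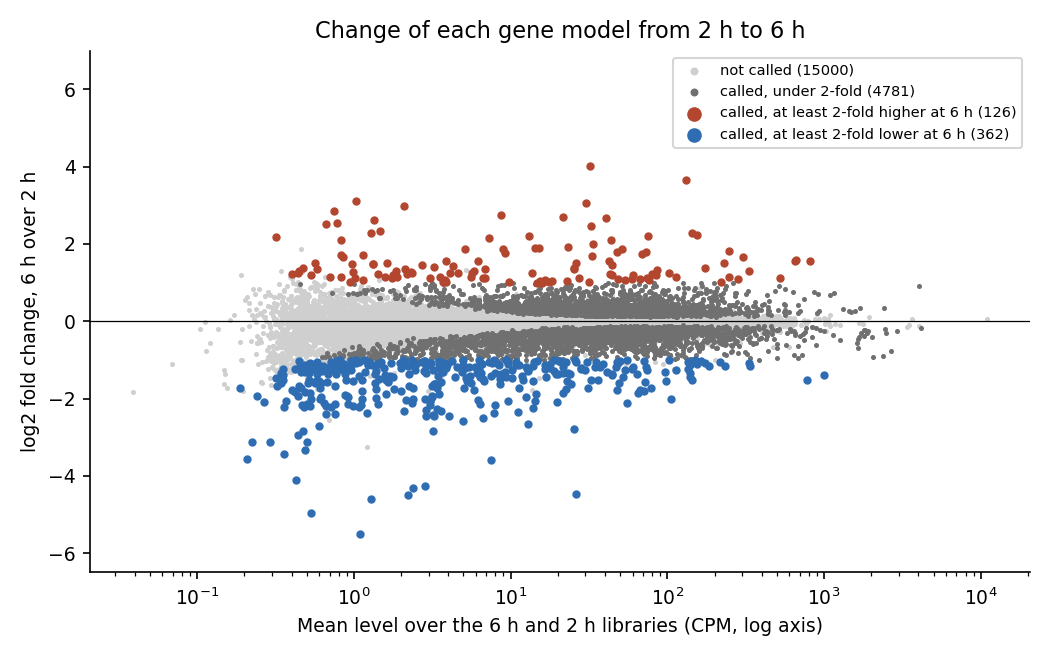
Log2 fold change of 6 h over 2 h (vertical axis) against the mean level in the 6 h and 2 h libraries in CPM (horizontal axis, log scale), with 1 point per tested gene model. The 126 genes called at least 2-fold higher and the 362 called at least 2-fold lower are coloured, and most of the largest decreases lie at low levels.

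The genes that changed at least 2-fold were shorter and less abundant than the tested genes as a whole. Their gene models had a median length of 2030 bases for the higher genes and 1904 bases for the lower genes, against 2247 bases over all genes tested. Their median level over the 15 libraries, per kilobase of model, was 4.63 CPM for the higher and 1.68 CPM for the lower genes, against 9.30 CPM over all tested. Genes called in either direction with no threshold on the fold had medians of 12.7 CPM per kilobase, both for the higher and for the lower ones. Short and low gene models have fewer counts and wider errors, and the part of this in the fold changes was not tested.

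As a share of all counted pairs, the strongly raised set took 1.10%, 1.12% and 1.11% in the 6 h libraries and 0.383%, 0.382% and 0.403% in the 2 h libraries. The strongly lowered set took 0.414%, 0.501% and 0.538% at 6 h and 1.20%, 1.13% and 1.27% at 2 h. All 2591 genes called higher made up 19.3% ± 0.198 of the pairs at 6 h and 14.3% ± 0.0116 at 2 h, and all 2678 called lower 18.0% ± 0.263 at 6 h and 23.7% ± 0.102 at 2 h (SD, n = 3 each). The genes were chosen for these differences, so the shares describe their weight in the stem's messenger RNA and carry no test. A few genes carried much of the shift among the larger changes. Of the summed CPM difference of the strongly raised set, 57.9% came from 10 genes, and in the strongly lowered set 10 genes carried 42.0% of theirs.

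No gene model went from silence to clear expression in this interval. None had 0 pairs in all 2 h libraries and at least 10 pairs in each 6 h library, and none had the opposite pattern. In total 727 gene models had 0 pairs at 2 h and some at 6 h, with at most 10 pairs over the 3 libraries of 6 h, and 842 had 0 pairs at 6 h and some at 2 h, with at most 19 pairs over the 3 libraries of 2 h. Counts this small lie near the limit of detection. Another 7332 had no pair in any of the 6 libraries.

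Of the 4 gene models named by rule, the gene with the largest fold increase was Pp3c10_16800V3.1, a model of 2025 bases. It stood at 64.3, 66.8 and 49.2 CPM at 6 h, against 4.65, 3.49 and 3.02 CPM at 2 h. The lowest 6 h library was over 10 times the highest 2 h library. The log2 change of 4.01 ± 0.135 (SE) is 16.1-fold (edgeR, Benjamini-Hochberg adjusted p = 3.78e-11). In 0 h stems Pp3c10_16800V3.1 had 1.08, 1.36 and 1.16 CPM. It had 83.1, 82.7 and 76.6 CPM in 12 h stems and 0.778, 0.615 and 0.714 CPM in 24 h stems. The 12 h libraries lay above all 6 h libraries, and the 24 h libraries below all 0 h libraries, although the gene was not called between 24 h and 0 h (log2 change -0.77 ± 0.312 SE; edgeR, adjusted p = 0.0699). Its log2 change from 12 h to 24 h was -6.83 ± 0.173 (SE; edgeR, adjusted p = 2.57e-13). With IAA the gene was at 0.897, 0.582 and 1.52 CPM, against 2.51, 1.83 and 2.19 CPM in mock (log2 change -1.13 ± 0.322 SE; edgeR, adjusted p = 0.0214).

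Pp3c7_6560V3.1 was a model of 1216 bases. Its rise of mean CPM was the largest among called genes that averaged 5 CPM or more and did not overlap between groups. It held 4869, 5424 and 5650 CPM at 6 h, against 2777, 2791 and 2839 CPM at 2 h. All 6 h libraries lay well above the narrow range of 2 h, and replicate 1 of 6 h was the lowest of them. The log2 change was 0.92 ± 0.0630 (SE), a 1.90-fold increase (edgeR, Benjamini-Hochberg adjusted p = 6.26e-08). Per kilobase of model, Pp3c7_6560V3.1 stood at 4370.3 CPM at 6 h and 2305 CPM at 2 h, while Pp3c10_16800V3.1 stood at 29.7 and 1.84 CPM. By its mean over the decapitation series it was the gene with the 8th highest CPM. The gene averaged 1975 CPM ± 26.6 in 0 h stems, 4989 CPM ± 266 in 12 h stems and 2039 CPM ± 173 in 24 h stems (SD, n = 3 each). The 12 h mean was thus near the 6 h values, and the 24 h mean near that of 0 h. Neither pair of times had a called difference, with adjusted p in edgeR of 0.271 for 12 h against 6 h (log2 change -0.09 ± 0.0624 SE) and 0.606 for 24 h against 0 h (log2 change 0.05 ± 0.0625 SE). A missing call does not show equal levels. With IAA it stood at 2331 CPM ± 208 and in mock at 2899 CPM ± 30.8 (SD, n = 3 each), a log2 change of -0.31 ± 0.0944 (SE; edgeR, adjusted p = 0.0265).

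Pp3c12_21960V3.1, a model of 2955 bases, fell the most among genes that averaged 5 CPM or more over the 6 libraries. It was at 1.98, 2.43 and 2.31 CPM at 6 h, against 48.5, 46.7 and 54.1 CPM at 2 h. The groups were far apart, and the log2 change was -4.47 ± 0.146 (SE), 22.2-fold lower (edgeR, Benjamini-Hochberg adjusted p = 3.78e-11). Stems of 0 h had 2.06, 1.61 and 1.36 CPM, stems of 12 h 1.23, 1.21 and 1.59 CPM, and stems of 24 h 0.778, 1.29 and 1.53 CPM. High values of this gene were thus seen at 2 h and at no other sampled time. IAA and mock libraries overlapped, with 0.671 to 1.30 CPM in IAA and 1.09 to 2.88 CPM in mock (log2 change -0.92 ± 0.399 SE; edgeR, adjusted p = 0.0989).

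Pp3c9_5310V3.1 was a model of 2204 bases with the 7th highest mean CPM in the decapitation series. Its fall of mean CPM was the largest under the same conditions as for Pp3c7_6560V3.1. It stood at 1708, 1593 and 1663 CPM at 6 h, against 3095, 3017 and 3102 CPM at 2 h. No 6 h library came near the 2 h range, and the log2 change was -0.89 ± 0.0451 (SE), 1.86-fold lower (edgeR, Benjamini-Hochberg adjusted p = 2.48e-09). Over the whole series Pp3c9_5310V3.1 had 4466 CPM ± 134 in 0 h stems, 2032 CPM ± 43.1 in 12 h stems and 5975 CPM ± 330.2 in 24 h stems (SD, n = 3 each). From 6 h to 12 h the level was already higher again, by a log2 change of 0.30 ± 0.0448, and 24 h exceeded 0 h by 0.42 ± 0.0448 (SE; edgeR, Benjamini-Hochberg adjusted p = 0.000120 and 8.77e-06). With IAA the gene had 4453 CPM ± 327 and with mock 2806 CPM ± 197 (SD, n = 3 each; log2 change 0.67 ± 0.102 SE; edgeR, adjusted p = 0.000952).

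**Figure D3:**
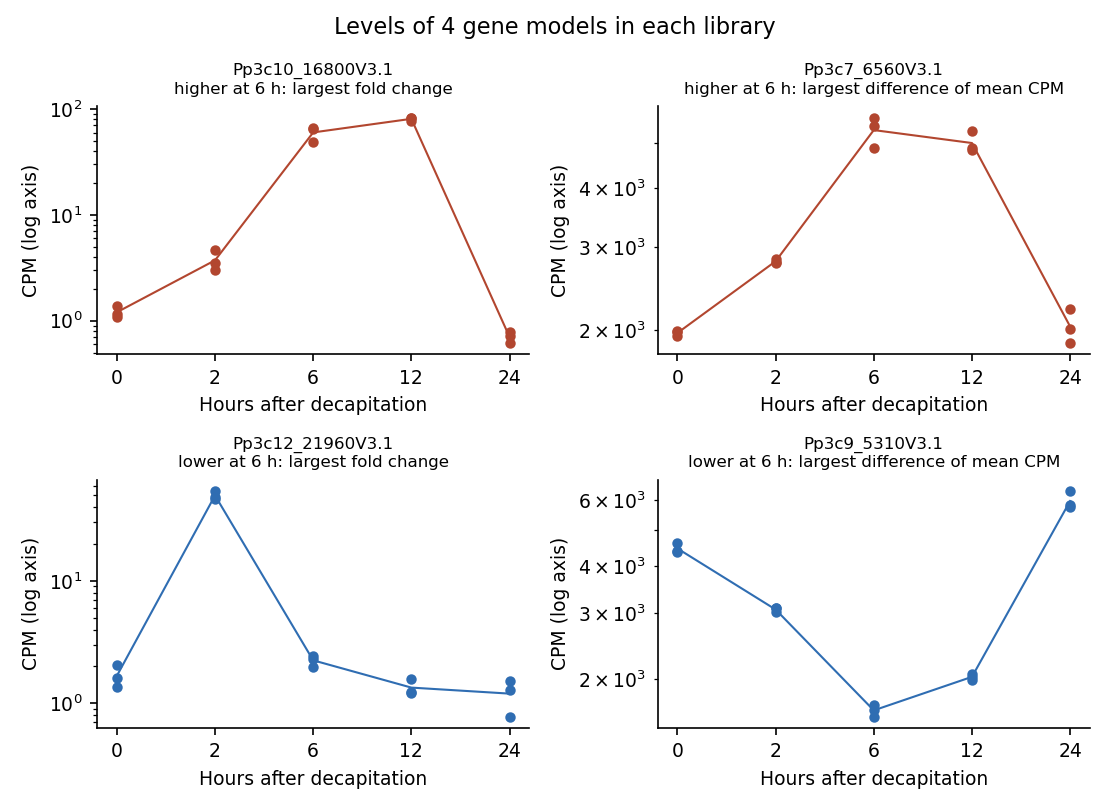
CPM on a log axis (vertical) of 4 gene models at 0, 2, 6, 12 and 24 h after decapitation (horizontal), with 1 point per library and a line through the means of 3 libraries. Pp3c10_16800V3.1 and Pp3c7_6560V3.1 are high at 6 h and 12 h, Pp3c12_21960V3.1 at 2 h alone, and Pp3c9_5310V3.1 is lowest at 6 h.

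Over the series, the strongly raised set traced a wave that was back near the starting level by 24 h. Relative to each gene's 0 h mean, the median log2 CPM of these 126 genes was 0.64 after 2 h, 2.05 after 6 h, 1.57 after 12 h and -0.06 after 24 h. The library medians were 0.69, 0.58 and 0.68 in 2 h stems, 1.98 to 2.05 in 6 h stems, 1.63, 1.72 and 1.51 in 12 h stems, and -0.17, -0.15 and 0.03 in 24 h stems. No library of 6 h or 12 h overlapped with any of 0 h, 2 h or 24 h in this median. The highest mean level fell at 6 h for 97 of the 126 genes (77.0%, against 25.3% of all genes tested) and at 12 h for 27 (21.4%, against 19.4%). The median level of the set was 14.7 CPM at 6 h and 4.23 CPM at 2 h, and 25 of its genes reached 100 CPM at 6 h against 11 at 2 h. The step's own libraries chose these genes, so their 6 h and 2 h values describe the choice. If all stems were cut at the same clock hour, 0 h and 24 h stems shared the hour of day. The clock hour is not in the labels, and its part in the return by 24 h was not tested.

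The strongly lowered set had medians below 0 h at 6, 12 and 24 h. Its median log2 CPM relative to 0 h was 0.24 after 2 h, -1.09 after 6 h, -0.82 after 12 h and -0.24 after 24 h, and the quartiles at 12 h ran from -2.03 to -0.17. Of the 362 genes, 176 (48.6%) had their highest mean level at 2 h, 96 (26.5%) at 0 h and 84 (23.2%) at 24 h. Over all genes tested, 19.4% were highest in 0 h stems, 12.6% in 2 h stems and 23.3% in 24 h stems. The genes were chosen for being higher at 2 h than at 6 h, and their share highest at 24 h was near that of all genes. Their lowest level fell at 6 h for 163 genes (45.0%, against 19.8% of all genes tested) and at 12 h for 147 (40.6%, against 23.8%). The choice of the genes by their 6 h level bears on the first of these counts. Genes of this set with a mean below 1 CPM numbered 152 at 6 h and 72 at 2 h.

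**Figure D4:**
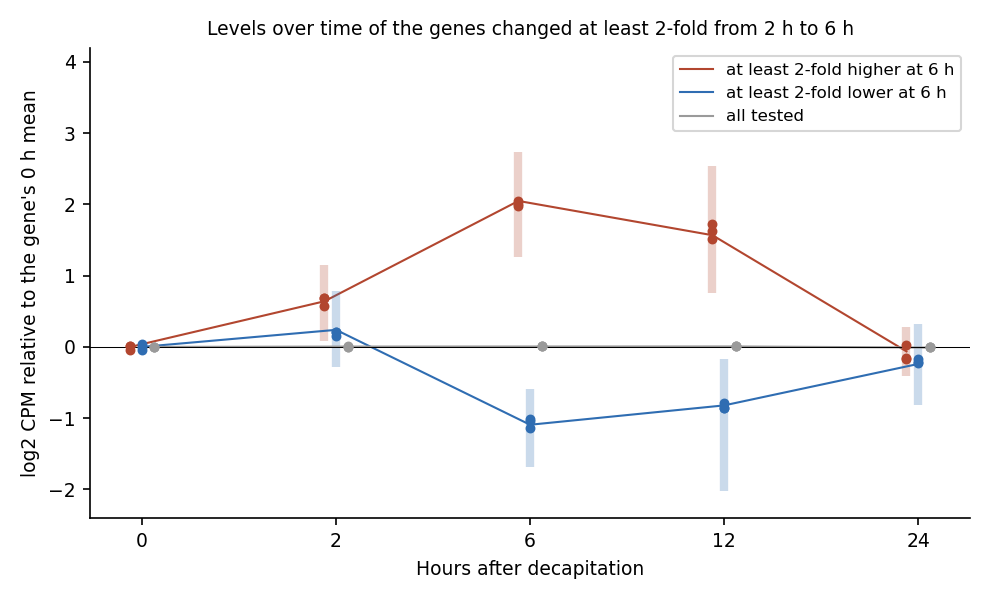
Median log2 CPM relative to each gene's 0 h mean (vertical axis) at 0, 2, 6, 12 and 24 h after decapitation (horizontal axis), for the strongly raised set of 126 genes (at least 2-fold higher at 6 h), the strongly lowered set of 362 (at least 2-fold lower) and all 20269 tested. Points are library medians, lines join the medians of the group means, and bars span the quartiles of the genes; the strongly raised set is at 2.05 after 6 h and at -0.06 after 24 h.

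Comparisons that use neither a 6 h nor a 2 h library show whether these genes also differed elsewhere in the series. Between 12 h and 0 h, 98 of the 126 strongly raised genes were called higher (77.8%) and 2 lower, with a median log2 change of 1.65. Over all genes tested 24.8% were called higher at 12 h and 25.0% lower, and the median was 0.01. Of the 362 strongly lowered genes, 198 were called lower at 12 h (54.7%) and 15 higher (4.14%), with a median of -0.95. Another 149 (41.2%) were not called between 12 h and 0 h.

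From 12 h to 24 h, most called genes of both sets moved against their change in the step. From 6 h to 12 h, 62 of the 126 strongly raised genes (49.2%) were already called lower and 14 (11.1%) higher. The strongly lowered set had 90 of 362 (24.9%) higher and 94 (26.0%) lower from 6 h to 12 h. Over all genes tested, 16.8% were higher and 21.2% lower in that interval, which shares the 6 h libraries with the step. In 24 h stems, 103 of the 126 strongly raised genes (81.7%) were lower than in 12 h stems and 1 was higher, with a median log2 change of -1.62, against 24% called higher and 21.6% called lower over all genes tested. In the strongly lowered set, 196 of the 362 genes (54.1%) were higher at 24 h than at 12 h and 17 (4.70%) lower, with a median of 0.78. The comparisons of 12 h with 0 h and of 24 h with 12 h share the 12 h libraries, so a gene's values in both are not independent.

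All called genes, with no threshold on the fold, had smaller median changes between 12 h and 0 h and between 24 h and 12 h. Of the 2591 genes that rose in the step, 1849 (71.4%) were higher in 12 h stems than in 0 h stems and 92 (3.55%) lower, with a median log2 change of 0.33, and 1862 (71.9%) were lower again in 24 h stems than in 12 h stems. Of the 2678 genes that fell, 1700 (63.5%) were lower in 12 h stems than in 0 h stems and 171 (6.39%) higher, with a median of -0.40, and 1832 (68.4%) were higher in 24 h stems than in 12 h stems. Over all genes tested, 24.8% were higher and 25.0% lower in 12 h than in 0 h stems, and 24% were higher and 21.6% lower in 24 h than in 12 h stems.

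Set against 0 h, the 24 h libraries were nearer to balance in the strongly raised set. Of its 126 genes, 25 (19.8%) were called higher at 24 h and 27 (21.4%) lower, shares near the 18.6% and 16.5% of all genes tested, with a median log2 change of -0.04. Of the 362 strongly lowered genes, 67 (18.5%) were called higher and 106 (29.3%) lower than at 0 h, with a median of -0.25. Over all 2678 genes that fell, the balance lay the other way, with 890 (33.2%) above and 568 (21.2%) below 0 h and a median of 0.05. Of the 362, 68 (18.8%) were called at least 2-fold below 0 h, against 1.94% of all genes tested.

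The genes with at least a 4-fold change in the step were counted in the same way between 0 h, 12 h and 24 h. Of the 24 genes raised at least 4-fold from 2 h to 6 h, 22 were called at least 2-fold above 0 h in 12 h stems, where 2.08% of all genes tested were, and 22 were called at least 2-fold below 12 h in 24 h stems, against 2.32% of all genes. Of the 71 genes lowered at least 4-fold, 36 were called lower in 12 h stems than in 0 h stems and none higher, against 25.0% lower and 24.8% higher over all genes tested. From 12 h to 24 h, 33 of the 71 were called higher and 1 lower, against 24% and 21.6% of all genes. At 24 h they had a median log2 change of -0.74 against 0 h, with 26 called lower and 15 higher, against 16.5% and 18.6% of all genes. These 71 had a median log2 change of 0.91 from 0 h to 2 h and -1.63 from 0 h to 6 h, beside -2.28 from 2 h to 6 h. Those 3 comparisons share libraries pairwise, so the medians stand side by side as descriptions.

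In the separate auxin experiment, more of the strongly raised genes were lower than higher in IAA, and more of the strongly lowered genes were higher than lower. Of the 126 strongly raised genes, 107 were also tested in the auxin experiment, where 53 (49.5%) were lower in IAA than in mock and 9 (8.41%) higher, with a median log2 change of -0.44. Of the 362 strongly lowered genes 308 were tested there, and 137 (44.5%) were higher in IAA than in mock and 24 (7.79%) lower, with a median of 0.48. Over all 19989 genes tested in the auxin experiment, 21.3% were higher in IAA and 18.4% lower. At a threshold of 2-fold, 33 of the 107 genes (30.8%) were lower in IAA, against 1.39% of all genes, and 99 of the 308 (32.1%) were higher, against 4.78%. In the other direction, 5 of the 107 (4.67%) were at least 2-fold higher in IAA, near the 4.78% of all genes. Of the 308, 13 (4.22%) were at least 2-fold lower in IAA, above the 1.39% of all genes. The remaining 19 raised and 54 lowered genes did not pass the count filter of the auxin experiment. Of the 24 genes raised at least 4-fold, 18 were tested there, with 8 lower and 3 higher in IAA (median log2 change -0.25). Of the 71 lowered at least 4-fold, 45 were tested, with 15 higher and 7 lower in IAA (median 0.48).

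**Figure D5:**
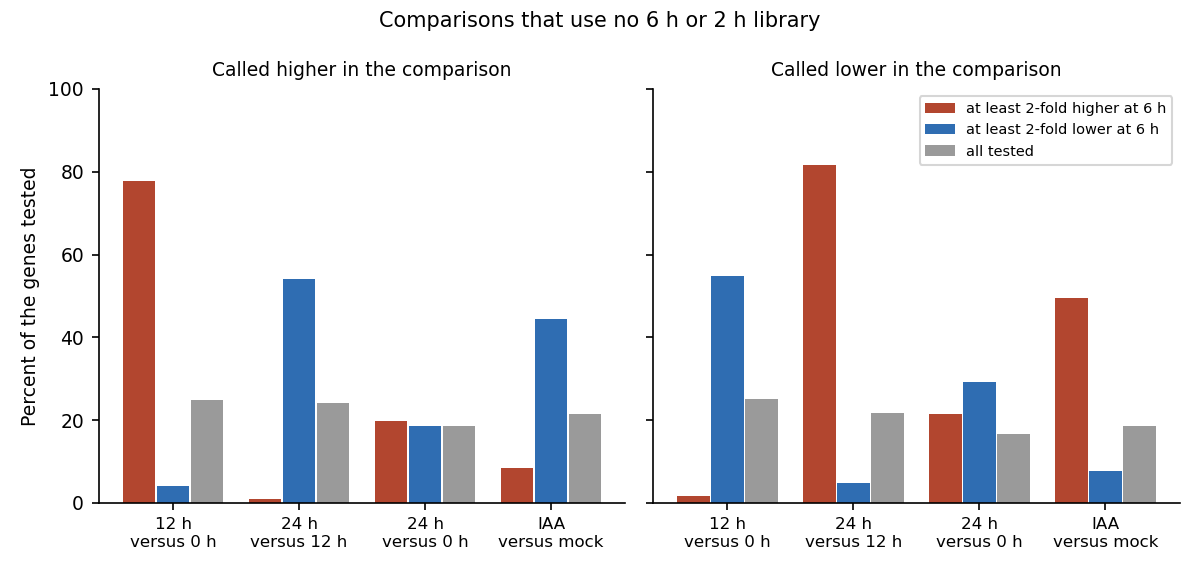
Percent of genes called higher (left) and lower (right) in 4 comparisons (horizontal axis), for the strongly raised set (at least 2-fold higher at 6 h), the strongly lowered set (at least 2-fold lower) and all genes tested in the decapitation series. In the strongly raised set 77.8% were higher at 12 h than at 0 h and 81.7% lower at 24 h than at 12 h, and 49.5% of those tested were lower in IAA than in mock.

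Split by their auxin response, the strongly lowered genes had these values at 12 h. Of the 137 strongly lowered genes that were higher in IAA, 115 (83.9%) were called lower in 12 h stems than in 0 h stems, with a median log2 change of -1.99, and 109 (79.6%) were higher in 24 h than in 12 h stems. Of the 147 genes with no called auxin response, 58 (39.5%) were lower at 12 h, with a median of -0.51, and 59 (40.1%) were higher in 24 h than in 12 h stems. Of the 24 that were lower in IAA, 4 were lower at 12 h, with a median of -0.07. As background, genes higher in IAA were called lower at 12 h in 56.0% of 4226 cases, genes with no auxin call in 18.8% of 11880 and genes lower in IAA in 10.2% of 3660. For 24 h above 12 h, the background was 53.0% of genes higher in IAA and 18.8% of genes with no auxin call. The difference between the 3 classes was not tested.

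Among the strongly raised genes, 53 were lower in IAA, and 51 of these (96.2%) were called higher in 12 h stems than in 0 h stems, with a median log2 change of 1.88. The 45 genes with no called auxin response had 33 (73.3%) called higher at 12 h, with a median of 1.15. Of the 9 that were higher in IAA, 6 were called higher at 12 h. Over all genes tested in both experiments, 45.1% of those lower in IAA, 24% of those with no auxin call and 10.8% of those higher in IAA were called higher at 12 h, so the classes themselves differed in this share, and the difference between the classes of the set was not tested. At 24 h the first 2 classes were near the start, with medians of -0.01 and 0.03 relative to 0 h. The hour at which the IAA and mock stems were collected is not in the labels, and the part of the hour of day in these counts was not tested.

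The step was also counted over genes chosen in the auxin experiment alone. Of the 924 genes at least 2-fold higher in IAA and tested in both experiments, 344 (37.2%) were lower after 6 h than after 2 h by the same call, and 36 (3.90%) higher, with a median log2 change of -0.34. Of the 269 genes at least 2-fold lower in IAA, 92 (34.2%) were called higher at 6 h and 37 (13.8%) lower, with a median of 0.14. Over all genes tested 12.8% were higher and 13.2% lower in the step, so the share of auxin-lowered genes that fell, unlike that of auxin-raised genes that rose, was near the background.

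The other intervals of the series had called shares of 26.1% from 0 h to 2 h, 38.0% from 6 h to 12 h and 45.6% from 12 h to 24 h, beside 26.0% from 2 h to 6 h. The intervals differ in length, neighbouring ones share a group of libraries, and the differences between these shares were not tested. From 0 h to 2 h, 242 genes (1.19%) rose and 119 (0.587%) fell at least 2-fold, and from 12 h to 24 h 866 (4.27%) rose and 470 (2.32%) fell. Decreases were the more numerous from 2 h to 6 h, with 126 genes up and 362 down, and from 6 h to 12 h, with 251 (1.24%) up and 482 (2.38%) down. Tested against 2-fold itself with glmTreat, the step from 2 h to 6 h had 37 genes up and 50 down. The lowest level class held 56 of the 126 and 203 of the 362.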

How the data were processed

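Libraries were stranded, paired-end TruSeq preparations of polyadenylated RNA (4 µg of total RNA each), per the labels' protocols. Reads were aligned with Bowtie2, per the submitters' processing notes. The genome build, annotation and strand setting are not given in the sources used here; overlapping antisense genes may share reads. The authors deposited whole-number counts of read pairs (the measure used), counts of reads (an alternative), and model lengths, with no normalization. Per the file headers, reads with several equally good positions were removed, so genes with near-identical copies are undercounted.

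The steps in edgeR 4.0.16 (R 4.3.3) were filterByExpr, TMM scaling, and quasi-likelihood F tests with group as the sole term, in 1 fit of the 15 decapitation libraries and 1 of the 6 auxin libraries. A gene was called at a Benjamini-Hochberg adjusted p below 0.05 over all genes tested. The SE of a log2 change is its size over the square root of F. CPM (counts per library size) carried the TMM scaling of their own experiment, with a prior count of 2 on the log2 scale. The labels call the samples biological replicates but do not say whether they came from separate cultures, and p-values measure the spread between these samples. Each library held 18995348 to 32039288 counted pairs.

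In each direction, the gene with the largest fold change and that with the largest difference of mean CPM were named, among called genes that averaged 5 CPM or more and whose groups did not overlap. The comparison, lists and rule were chosen with earlier results of these data known. Alternatives were RLE scaling, other filters, DESeq2 1.42.0, a replicate block, fits of 6 or 21 libraries, counts of reads, stricter thresholds and leaving out each library. Scripts were tested on simulated counts.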

Additional observations from a re-analysis of the deposited data

How the results depend on the processing

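The 4 named genes kept their direction and stayed called under RLE scaling, both other filters, DESeq2, a replicate block, fits of 6 or 21 libraries, counts of reads, and without any 1 of the 6 libraries. Under those settings the counts of genes called and of genes changed at least 2-fold or 4-fold also stayed within 1.5 times their reported values. With DESeq2, 1987 genes were higher and 2653 lower, 111 and 341 of them at least 2-fold. The share of calls that were higher was 49.2% in the reported fit and ran from 42.8% with DESeq2 to 50.4% with no filter. RLE scaling gave 45.5%, the fit of 6 libraries 46.4% and that of 21 libraries 45.3%. The near balance of increases and decreases thus varied with the setting. Stricter thresholds moved the counts: at an adjusted p below 0.01, 1460 genes were higher and 1625 lower, and with glmTreat against 2-fold 37 were higher and 50 lower. With a filter of 1 CPM in 3 libraries, 60.1% of the strongly lowered set were lower in 12 h than in 0 h stems, 60.1% were higher in 24 h than in 12 h stems, and 51.4% were higher in IAA. With no filter the last share was 38.5%. These filters change which low-count genes enter.

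Leaving out 1 library at a time gave 1878 to 2195 genes higher, 2053 to 2360 lower, 117 to 135 at least 2-fold higher, 303 to 404 at least 2-fold lower, 21 to 27 at least 4-fold higher and 66 to 80 at least 4-fold lower. Without replicate 1 of 6 h, 109 of the 126 strongly raised genes and 268 of the 362 strongly lowered genes remained in their sets.

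Same-numbered libraries of 6 h and 2 h deviated together for numbers 1 and 3 (r = 0.158 and 0.175 across genes) but not for number 2 (r = 0.000335), so the numbers were not taken as pairs, and not every library correlated best with its own number. With a replicate block, 2706 genes were higher and 2763 lower, 126 and 359 at least 2-fold. Depth limits what can be said of genes near or under 1 CPM, which the filters treat differently.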

Other observations

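The called genes were spread over all 27 numbered identifier prefixes (Pp3c1 to Pp3c27). The share of tested genes called higher at 6 h than at 2 h ran from 11.0% for Pp3c2 to 15.4% for Pp3c22, beside 12.8% over all prefixes. The share called lower ran from 10.9% for Pp3c26 to 15.9% for Pp3c4, Pp3c6 and Pp3c25, beside 13.2% over all. Genes at least 2-fold lower made up 0.765% of the tested genes of Pp3c20 and 2.77% of those of Pp3c6. Genes at least 2-fold higher made up 0.115% for Pp3c14 and 1.46% for Pp3c23, which were 1 and 9 genes. Of the 57 tested genes with other prefixes, none was called higher and 9 were called lower.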
